A study of Homo sapiens with 8 samples.

Results

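The genes described are 10 of the 58302 entries of a table of read counts per gene: the core and accessory subunits of Polycomb repressive complex 2 (PRC2), namely EZH2, EZH1, EED, SUZ12, RBBP4, RBBP7, JARID2, MTF2, AEBP2 and PHF19. They were chosen by gene symbol, with no threshold on a measured value, at a time when results of these data were already known. All 10 passed the filter on low counts. RNA was sequenced from human pluripotent stem cells in which a subunit of kinesin-2, the motor that carries cargo along cilia, had been knocked out, and from isogenic controls. In WTC11, an induced pluripotent stem cell line, there were 2 control libraries and 3 libraries of KIF3B-/- cells. In WA09, an embryonic stem cell line, there were 2 control libraries and 1 library of KIF3A-/- cells. All cells were undifferentiated and untreated, all were kept without feeders in mTeSR1 medium, and each library was prepared from 100 to 1000 cells. WTC11 control 1 and KIF3B knockouts 1 and 2 came from KIF3B guide RNA 1, and WTC11 control 2 and KIF3B knockout 3 from KIF3B guide 2. All WA09 libraries came from KIF3A guide 1. The knocked-out gene and the cell line cannot be told apart in this design, and the KIF3A knockout has no replicate library. The series text speaks of several clones, but no label says that each library is a clone or culture of its own, and the p-values then reflect no more than the variation among these libraries, part of which may be technical.

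PRC2 places methyl groups on lysine 27 of histone H3, the mark of facultatively silent chromatin. EZH2 or its homolog EZH1 holds the methyltransferase site, which is active only in a core with EED and SUZ12, to which the histone-binding proteins RBBP4 and RBBP7 are joined. JARID2 and AEBP2 define one form of the complex, and the Polycomb-like proteins MTF2 and PHF19 define the other. In pluripotent stem cells PRC2 is known for covering the promoters of developmental regulators that are off until differentiation.

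No PRC2 gene passed the test in a knockout comparison. EZH2, the main methyltransferase, stood at 120 to 150 CPM (counts scaled to a common library total) in the 5 WTC11 libraries and at 44.0 to 96.1 CPM in the 3 WA09 libraries, and JARID2 was likewise higher in every WTC11 than in every WA09 library. Of all genes tested, 7.55% were higher in this way, and edgeR called neither line difference. AEBP2 was higher in all 4 knockout libraries than in all 4 control libraries, as were 2.38% of all genes tested, and it was not called. The histone-binding subunits RBBP4 and RBBP7, the scaffold SUZ12 and the Polycomb-like MTF2 varied by under 9% (coefficient of variation) over the 8 libraries.

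Promoters are printed for the pair of genes that were higher together in WTC11, EZH2 and JARID2, and, for contrast, for SUZ12, which held its level, and for the sparse homolog EZH1. Each is a window of 220 bases upstream of the gene's start in RefSeq (GRCh38.p14), 5′ to 3′ on the gene's strand, that leaves out the 30 bases next to the start. Capitals mark CCAAT on either strand (ATTGG on the other strand) and the E2F words TTTGGCGC, TTTCCCGC, TTTGCCGC and TTTCGCGC on either strand. CCAAT and the E2F words do not overlap in these windows. The EZH2 window lies at chr7:148884322-148884541 (minus strand), that of JARID2 at chr6:15245819-15246038 (plus strand), that of SUZ12 at chr17:31936757-31936976 (plus strand) and that of EZH1 at chr17:42745071-42745290 (minus strand).
EZH2: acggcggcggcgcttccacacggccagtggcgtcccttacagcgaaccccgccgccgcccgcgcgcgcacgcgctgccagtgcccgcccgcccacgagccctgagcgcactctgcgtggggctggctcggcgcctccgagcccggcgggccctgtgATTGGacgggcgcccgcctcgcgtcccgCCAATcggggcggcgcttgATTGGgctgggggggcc
JARID2: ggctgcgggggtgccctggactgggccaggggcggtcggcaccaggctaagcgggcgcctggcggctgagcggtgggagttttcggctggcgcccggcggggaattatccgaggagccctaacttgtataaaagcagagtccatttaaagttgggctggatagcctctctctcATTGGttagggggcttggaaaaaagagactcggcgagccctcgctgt
SUZ12: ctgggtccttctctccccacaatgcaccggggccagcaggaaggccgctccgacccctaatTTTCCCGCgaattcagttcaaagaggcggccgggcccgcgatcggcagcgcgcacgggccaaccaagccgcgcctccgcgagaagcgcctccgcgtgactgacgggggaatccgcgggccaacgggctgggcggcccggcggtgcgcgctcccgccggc
EZH1: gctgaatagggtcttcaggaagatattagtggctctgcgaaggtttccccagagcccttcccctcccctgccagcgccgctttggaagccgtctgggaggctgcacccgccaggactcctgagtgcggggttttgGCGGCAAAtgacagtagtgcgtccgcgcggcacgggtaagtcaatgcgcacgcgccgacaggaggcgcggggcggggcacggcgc

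The EZH2 window holds CCAAT 3 times, 1 on the gene's strand and 2 on the other, and none of the E2F words. JARID2 has 1 CCAAT, on the other strand. SUZ12 and EZH1 have no CCAAT and 1 E2F word each. Of the members whose windows are not printed, RBBP4 has 2 CCAAT, RBBP7 has 1 and PHF19 has 1, and EED, MTF2 and AEBP2 have 0. Between the control lines (WTC11 over WA09), RBBP4 differed by 0.09 ± 0.11 log2, RBBP7 by 0.15 ± 0.09 and PHF19 by 1.21 ± 0.59. Each of these unprinted windows overlaps the GENCODE span of the member's own gene. For AEBP2 and PHF19 the RefSeq start lies 36554 and 17708 bases from the GENCODE start, so their windows may not be the promoters in use. The part of CCAAT in the line difference was not tested. Of all 35116 RefSeq windows of this length, 29.8% hold CCAAT and 2.47% hold any of the E2F words, so that a CCAAT is a common feature. EZH2 has 35 CG dinucleotides in its window, SUZ12 has 31, EZH1 has 21 and JARID2 has 15, against a median of 9 over all windows. These matches describe the letters of the reference and no binding was measured.

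The libraries held 2161890 to 2875163 counts, with 16658 to 18562 genes detected. A count of 0 would allow up to 3 counts, or 1.04 to 1.39 CPM. KIF3A had 75 counts (33.1 CPM) in the KIF3A knockout library and 174 and 167 counts (68.3 and 61.8 CPM) in the WA09 controls. KIF3B was not lower in the libraries labelled KIF3B knockout: it had 129, 86 and 107 counts there and 71 and 59 counts in the WTC11 controls, and counts over a whole gene do not show an edit within it, so that this label has no check in the RNA. The 10 pluripotency markers, POU5F1, NANOG and SOX2 among them, were all tested, and their summed level was 4291 to 5262 CPM.

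The PRC2 genes differed widely in their length-scaled level, the CPM per kilobase of the longest annotated transcript, which may not be the one these cells use. RBBP7 was highest, with a mean of 117 CPM per kb over the 8 libraries (range 111 to 126). JARID2 (55.6, range 36.7 to 70.6) and MTF2 (53.4, range 46.7 to 59.2) followed, and their ranges overlapped. RBBP4 (38.5, range 35.4 to 42.5), EED (33.9, range 23.2 to 49.5) and EZH2 (30.3, range 12.1 to 41.2) could not be ordered by their ranges. SUZ12 had 10.6 CPM per kb (range 8.91 to 12.3), which is close to the median of 8.87 over the genes tested. PHF19 (5.40, range 2.63 to 10.1), AEBP2 (4.97, range 3.33 to 8.17) and EZH1 (2.08, range 0.764 to 2.95) were below that median. Of neighbours in this order, RBBP7 and JARID2, MTF2 and RBBP4, and AEBP2 and EZH1 had ranges that did not overlap. The core subunits, which act in 1 complex, were thus not at equal RNA levels: EED exceeded SUZ12 by 2.11 to 4.58 times per kb in every library, and EZH2 exceeded SUZ12 by 1.35 to 3.73 times.

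**Figure D1:**
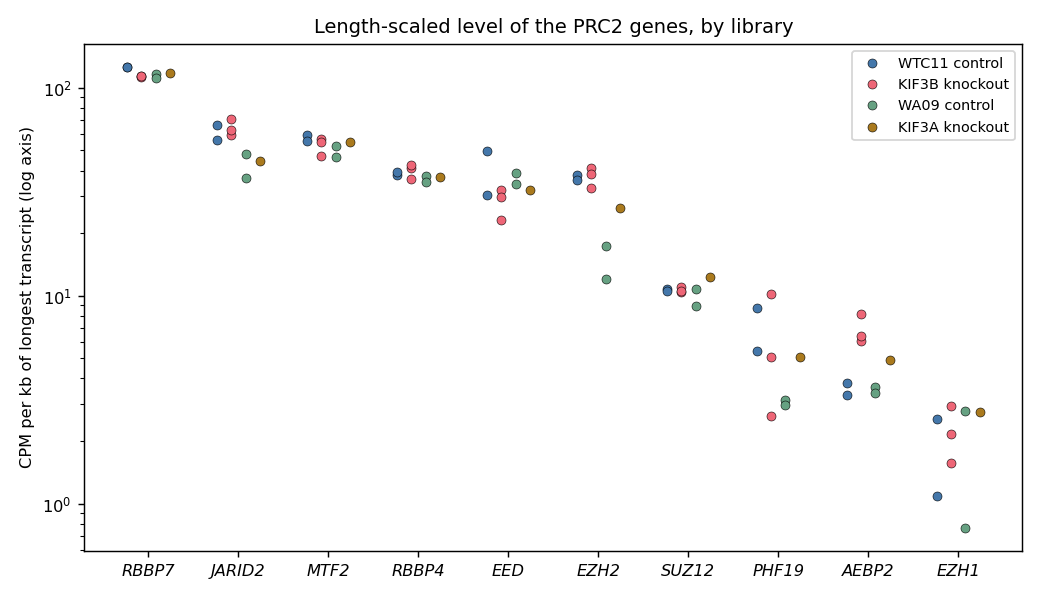
Length-scaled level (CPM per kb of the longest transcript, log axis) of the 10 PRC2 genes, 1 point per library, coloured by group and ordered by the mean. RBBP7 lies above all other members at 111 to 126 CPM per kb, and EZH1 lies lowest at 0.764 to 2.95.

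The methyltransferase genes come first. EZH2 (ENSG00000106462, chr7:148807383-148884321, minus strand) had 139 and 131 CPM in the WTC11 controls, 120, 150 and 140 CPM in the KIF3B knockout, 44.0 and 62.9 CPM in WA09 controls and 96.1 CPM in KIF3A knockout cells. The KIF3B knockout libraries lay around their controls, whereas the KIF3A knockout library lay above both of its controls and below every WTC11 library. Behind these levels were 304 and 289, 313, 345 and 389, 112 and 170, and 218 counts in the same order. The means were 135 ± 5.92 CPM in the WTC11 controls (SD, n = 2), 136 ± 15.4 in the KIF3B knockout (SD, n = 3) and 53.4 ± 13.4 in the WA09 controls (SD, n = 2).

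Knockout of KIF3B left EZH2 with a log2 fold change of 0.01 ± 0.19 (SE; edgeR quasi-likelihood test with Benjamini-Hochberg adjustment over all genes, adjusted p = 0.979; 95% interval -0.36 to 0.38). In the KIF3A comparison EZH2 had a log2 fold change of 0.85 ± 0.26, with an unadjusted p of 0.00823 and an edgeR adjusted p of 1, and it was not called. These are bulk libraries, in which fewer cells of a type and less RNA per cell cannot be told apart. The KIF3A effect minus the KIF3B effect on EZH2 was 0.83 ± 0.32 on the log2 scale (edgeR adjusted p = 0.517), so that a difference between the effects was not shown. With both lines pooled, the knockout difference of EZH2 was 0.31 ± 0.19, and 0.01 without the KIF3A knockout library.

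Between the control libraries, EZH2 was 2.53-fold higher in WTC11 than in WA09 (log2 fold change 1.34 ± 0.21, 95% interval 0.92 to 1.76). This interval, like those of the other fold changes, is a normal approximation and is too narrow for so few libraries. The edgeR adjusted p was 0.106, from an unadjusted p of 0.000105 that ranked 10th among 14216 genes, so EZH2 was not called. It was called by DESeq2 (adjusted p = 0.000634) and by edgeR with no filter on low counts (adjusted p = 1.10e-05). The adjusted p over all alternatives ran from 1.10e-05 to 0.624, and the difference stayed between 1.09 and 1.62 on the log2 scale. In a fit to all 8 libraries with line and knockout as terms, added after the values were seen, the line difference of EZH2 was 0.96 ± 0.21 (edgeR adjusted p = 0.0525; 7.58e-05 to 0.158 over the alternatives). This fit and the comparison of controls share the 4 control libraries.

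EZH1 (ENSG00000108799, chr17:42700275-42745049, minus strand), the homolog that is known to prevail in resting cells, had a length-scaled level above that of only 21.2% of the genes tested. It had 5.04 and 11.8 CPM in the WTC11 controls, 7.26, 9.99 and 13.7 in the KIF3B knockout, 3.53 and 13 in the WA09 controls and 12.8 in the KIF3A knockout. Both pairs of controls were spread over nearly the whole range. The lowest count was 9 (95% exact Poisson interval 4.12 to 17.1, counting error only) and the highest was 38. EZH1 differed by 0.29 ± 0.68 log2 in the KIF3B and by 0.63 ± 0.88 log2 in the KIF3A comparison, and neither value exceeded its SE. The WA09 controls differed from each other beyond counting error, with 9 counts against 35 (95% exact Poisson interval 24.4 to 48.7). EZH2 exceeded EZH1 per kb in all 8 libraries, by 6.17 times in WA09 control 2 to 35.1 times in WTC11 control 1.

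**Figure D2:**
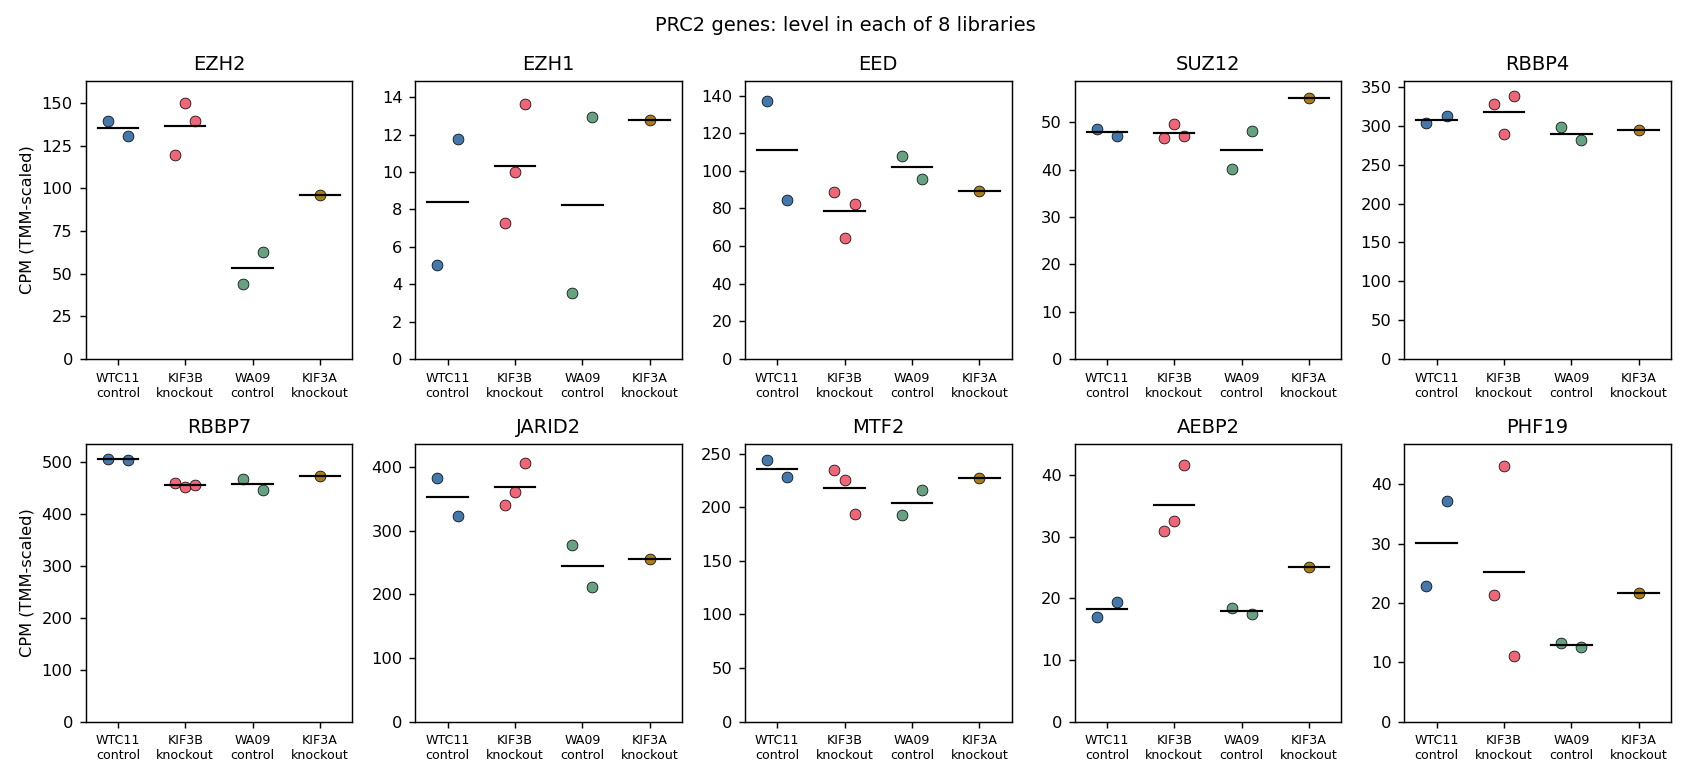
CPM of each PRC2 gene (y axis from 0; bars mark group means) in the 2 WTC11 control, 3 KIF3B knockout, 2 WA09 control and 1 KIF3A knockout libraries, 1 point per library. EZH2 and JARID2 are higher in WTC11 than in WA09 libraries, and AEBP2 is higher in each knockout library than in every control library.

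None of the other core subunits was called in a comparison. EED (ENSG00000074266, chr11:86244544-86278813, plus strand), which binds the methylated histone tail, had 137 and 84.7 CPM in the WTC11 controls, 89.0, 64.3 and 82.3 in the KIF3B knockout, 108 and 95.8 in the WA09 controls and 89.1 in the KIF3A knockout. WTC11 control 1 was the highest library of EED by far, and the KIF3B knockout libraries overlapped the other control. EED had a log2 fold change of -0.50 ± 0.24 in the KIF3B comparison (edgeR adjusted p = 0.328), of -0.11 without WTC11 control 1 and of -0.80 without WTC11 control 2. In the KIF3A comparison it was -0.19 ± 0.32, and -0.39 ± 0.19 with the lines pooled (edgeR adjusted p = 0.586). The value of EED thus rests on which of the WTC11 controls is used, and these controls belong to different guides. With guide 1, EED had 137 CPM in the control and 89.0 and 64.3 in the knockouts. With guide 2 it had 84.7 CPM in the control and 82.3 in the knockout. A difference between guides was not tested for EED.

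SUZ12 (ENSG00000178691, chr17:31937018-32001045, plus strand), the scaffold to which the accessory proteins attach, had 48.6 and 47.1 CPM in the WTC11 controls, 46.6, 49.5 and 47.1 in the KIF3B knockout, 40.0 and 48.1 in the WA09 controls and 55.1 in the KIF3A knockout. The coefficient of variation of SUZ12 over the 8 libraries was 8.68%. Of 2833 genes within 1.5-fold of its mean level, 0.459% varied less, and their median was 26.6%. Its fold change in the KIF3B comparison was 0.00 ± 0.23 on the log2 scale, with a 95% interval of -0.46 to 0.45. SUZ12P1, a pseudogene copy, had 18 to 31 counts in each library, and reads of the copy and of SUZ12 may have been assigned either way.

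RBBP4 (ENSG00000162521, chr1:32651142-32686211, plus strand) and RBBP7 (ENSG00000102054, chrX:16839283-16870414, minus strand) are histone chaperones that also serve in deacetylase and nucleosome assembly complexes. RBBP4 had 303 and 312 CPM in the WTC11 controls, 328, 289 and 338 in the KIF3B knockout, 298 and 281 in the WA09 controls and 295 in the KIF3A knockout. The groups of RBBP4 overlapped in the KIF3B and in the KIF3A comparison, and its difference was 0.05 ± 0.10 log2 in the KIF3B and 0.03 ± 0.14 log2 in the KIF3A comparison. RBBP7 had 507 and 505 CPM in the WTC11 controls, 461, 453 and 457 in the KIF3B knockout, 468 and 447 in the WA09 controls and 473 in the KIF3A knockout.

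Each KIF3B knockout library had less RBBP7 than both WTC11 controls, the only PRC2 gene of which this held. Of all genes tested, 18% were lower in this way, and RBBP7 had a log2 fold change of -0.15 ± 0.08 (edgeR adjusted p = 0.395). The WA09 controls of RBBP7 lay on either side of the KIF3B knockout libraries. TXLNG, which overlaps RBBP7 on the opposite strand, had 4037 counts over the 8 libraries, and it was not given whether reads were counted by strand.

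JARID2 (ENSG00000008083, chr6:15246296-15522040, plus strand), a cofactor that helps to bring PRC2 to chromatin, had 383 and 323 CPM in the WTC11 controls, 340, 361 and 406 in the KIF3B knockout, 277 and 211 in the WA09 controls and 256 in the KIF3A knockout. The lines did not overlap, and in each line the knockout libraries lay among or near their controls. JARID2 was 1.45-fold higher in WTC11 than in WA09 controls (log2 fold change 0.53 ± 0.16; edgeR adjusted p = 0.188, and 0.0214 to 0.750 over the alternatives). In the fit to all libraries its line difference was 0.52 ± 0.12 (edgeR adjusted p = 0.0599; 0.00472 by DESeq2, and 0.00288 to 0.186 over the alternatives). The knockout difference of JARID2 was 0.07 ± 0.14 log2 for KIF3B and 0.07 ± 0.19 log2 for KIF3A.

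AEBP2 (ENSG00000139154, chr12:19404045-19720801, plus strand), a zinc finger protein that binds PRC2 together with JARID2, had 17 and 19.5 CPM in the WTC11 controls, 30.9, 32.6 and 41.7 in the KIF3B knockout, 18.4 and 17.4 in the WA09 controls and 25.1 in the KIF3A knockout. The controls of both lines lay close together, and each of the 4 knockout libraries lay above all of them. AEBP2 was counted 37 and 43 times in the WTC11 controls, 81, 75 and 116 times in the KIF3B knockout, 47 and 47 times in the WA09 controls and 57 times in the KIF3A knockout. The counting interval of the KIF3A knockout library (95% exact Poisson, 43.2 to 73.9 counts) overlapped those of its controls (34.5 to 62.5 counts).

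AEBP2 had the largest log2 fold change of the 10 in the KIF3B comparison, 0.94 ± 0.33 or 1.92-fold (unadjusted p = 0.0181, edgeR adjusted p = 0.215), and it was not called. The KIF3A value was 0.49 ± 0.43 (edgeR adjusted p = 1). Pooled over both lines, the knockout difference was 0.78 ± 0.27 (edgeR adjusted p = 0.565, and 0.202 to 0.972 over the alternatives), and it stayed between 0.64 and 0.94 in all alternatives. Of all 13238 genes tested, 2.38% were higher in every knockout than in every control library, 1.81% were lower in every one, and AEBP2 was the 1 PRC2 gene among the former. Gene length moved with the KIF3B comparison: over 14199 genes the fold change rose with transcript length (Spearman's rho 0.35, across genes, which are not independent replicates), and with that trend removed AEBP2 stood at 0.74. The KIF3B knockout libraries also had larger totals than their controls (2387357 to 2875163 against 2161890 to 2234379 counts), while the KIF3A knockout library had a smaller one (2236845 against 2559733 and 2605256). The part of length and of depth in the level of AEBP2 was not tested beyond this.

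The Polycomb-like proteins bind unmethylated CG-rich DNA. MTF2 (ENSG00000143033, chr1:93079235-93139081, plus strand) had 244 and 228 CPM in the WTC11 controls, 234, 225 and 194 in the KIF3B knockout, 193 and 216 in the WA09 controls and 227 in the KIF3A knockout. Its groups overlapped in the KIF3B comparison (log2 fold change -0.12 ± 0.12). PHF19 (ENSG00000119403, chr9:120855652-120894896, minus strand) had 22.9 and 37.2 CPM in the WTC11 controls, 21.4, 43.0 and 11.1 in the KIF3B knockout, 13.3 and 12.6 in the WA09 controls and 21.6 in the KIF3A knockout. PHF19 varied most of the 10, with a coefficient of variation of 50.8%, and its lowest and highest values were both in the KIF3B knockout. The WTC11 controls exceeded the WA09 controls in PHF19 by 1.21 ± 0.59 log2 (edgeR adjusted p = 0.380), a value that was 0.02 with the number of detected genes as a covariate and 1.51 without WTC11 control 1. MTF2 exceeded PHF19 per kb by 5.39 to 17.9 times.

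**Figure D3:**
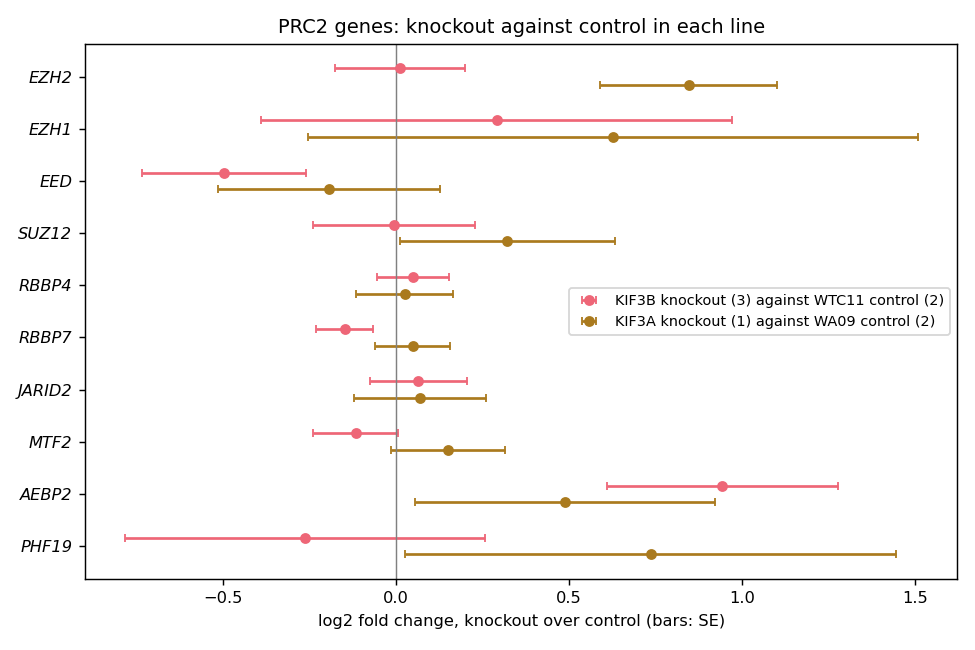
Log2 fold change (x axis; bars are SE) of each PRC2 gene, knockout over control, in WTC11 (KIF3B, 3 against 2 libraries) and in WA09 (KIF3A, 1 against 2 libraries). AEBP2 has the largest KIF3B value (0.94) and EZH2 the largest KIF3A value (0.85), and none was called.

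Counted together, 0 of 10 PRC2 genes were called in the KIF3B comparison, where edgeR called 0% of 14216 genes (2366 had an unadjusted p under 0.05, 1 PRC2 gene among them), DESeq2 called 246 genes and limma 0, with no PRC2 gene in either. Of the 10 genes, 5 had a positive and 5 a negative KIF3B value, and their median was 0.00, against 0.03 over all genes. Not overlapping with the controls were 1 PRC2 gene on the higher side and 1 on the lower side, where 16.5% and 18% of all genes were. In the KIF3A comparison 0 of 10 were called, against 0% of all genes (527 with an unadjusted p under 0.05, 1 PRC2 gene among them; DESeq2 called 1 gene and limma 0, with no PRC2 gene). Of the 10, 9 had a positive KIF3A value, and their median was 0.24, against -0.02 over all genes, but each of these values rests on the same single library. For the difference between both effects (0% called; 1322 unadjusted, DESeq2 17, limma 0) and for the pooled knockout difference (0% called; 1137 unadjusted, DESeq2 37, limma 0) no PRC2 gene was called by any of the 3 tools either.

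Between the control libraries of WTC11 and WA09, edgeR called 0.0281% of genes, which are the 4 genes EIF5, LARP1, GALNT3 and PRRC2C, and 0 of 10 PRC2 genes. At an unadjusted p under 0.05 there were 2129 genes, EZH2 and JARID2 among them, and DESeq2 called 219 genes, 1 of them a PRC2 gene (EZH2), while limma called 0. All 10 PRC2 genes had a higher estimate in the WTC11 controls, where 49.4% of all genes did, and their median difference was 0.13 against -0.01. Some other lists leaned the same way between the controls. Higher in WTC11 were 16 of 20 E2F targets, 8 of 10 pluripotency markers, 14 of 19 genes of the trithorax list and 15 of 21 partners of RBBP4 and RBBP7. Lists that did not lean this way were mesenchymal markers (1 of 6 tested), primitive streak and endoderm markers (1 of 4) and H3K27 demethylases with the H2A deubiquitinase complex (4 of 9). In the fit to all libraries 0 of 10 PRC2 genes and 0.99% of 13238 genes were called (2481 unadjusted, DESeq2 804, limma 116), and DESeq2 called 2 PRC2 genes, EZH2 and JARID2. There 7 PRC2 genes had a higher and 3 a lower estimate in WTC11, with a median of 0.09. Both were higher in every WTC11 than in every WA09 library, as were 7.55% of all genes. None of the 10 was lower in this way, where 8.23% of all genes were.

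**Figure D4:**
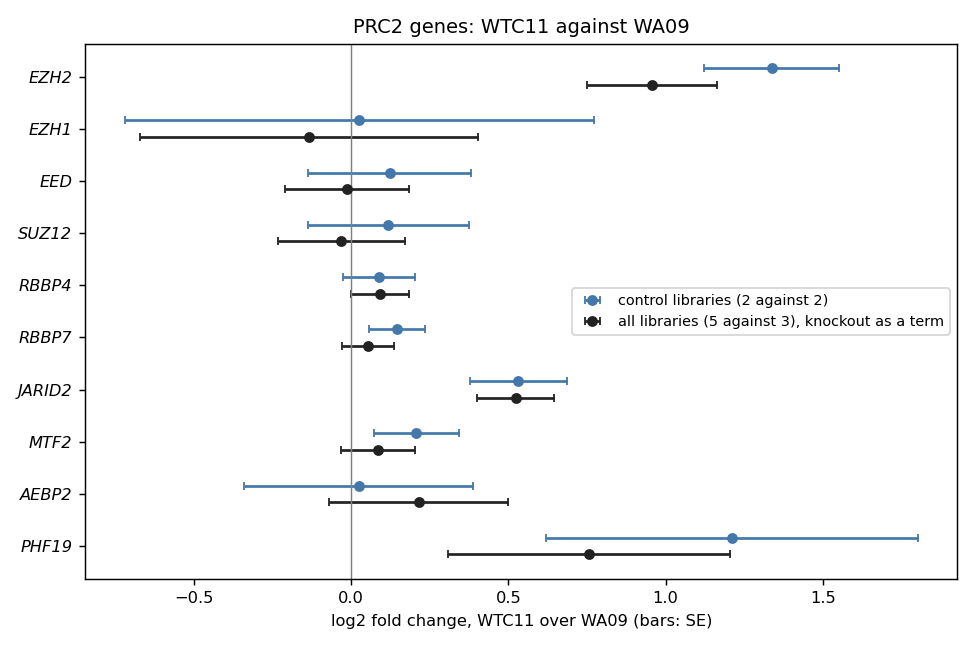
Log2 fold change (x axis; bars are SE), WTC11 over WA09, of each PRC2 gene between the control libraries (2 against 2) and over all libraries with knockout as a term (5 against 3). EZH2 (1.34 and 0.96) and JARID2 (0.53 and 0.52) lie farthest from 0 relative to their SE.

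Sums of some other marker lists differed between the lines as well. Those of the primitive streak and endoderm, the mesenchymal and fibroblast, and the trophectoderm and amnion markers overlapped between the lines. The pluripotency markers summed to 4879 to 5262 CPM in the WTC11 libraries and to 4291 to 4765 CPM in the WA09 libraries. The 8 neuroectoderm markers, of which 1 was at 0 in all libraries, summed to 111 to 157 CPM in WTC11 and to 74.6 to 106 CPM in WA09. The 20 genes induced by E2F at the start of DNA replication, a program in which EZH2 is known to take part, summed to 4338 to 5160 CPM in WTC11 and to 3959 to 4474 CPM in WA09, and here the lines overlapped. Of these 20 genes 16 had a higher estimate in the WTC11 controls (median 0.17, 3 with an unadjusted p under 0.05, 0 called by edgeR), where 49.4% of all genes did. MCM3, a helicase subunit and the most abundant of the list, differed by 0.13 ± 0.12 log2. The part of these genes in the line difference of EZH2 was not tested.

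Among genes with a mean of at least 5 CPM, the 5 whose log2 CPM followed EZH2 most closely over the 8 libraries were ATP6V0D1 (r = 0.99), RYBP (r = 0.98), ZNF121, YWHAH and PRRC2C (r = 0.97 each). All 5 were, like EZH2, higher in WTC11 than in WA09 controls, and the points share their line, library and depth, so that r is a description only. RYBP, a subunit of variant Polycomb repressive complex 1, had 38.0 and 43.5 CPM in the WTC11 controls, 30.6, 42.1 and 41.3 in the KIF3B knockout, 12.6 and 19.98 in the WA09 controls and 27.8 in the KIF3A knockout.

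**Figure D5:**
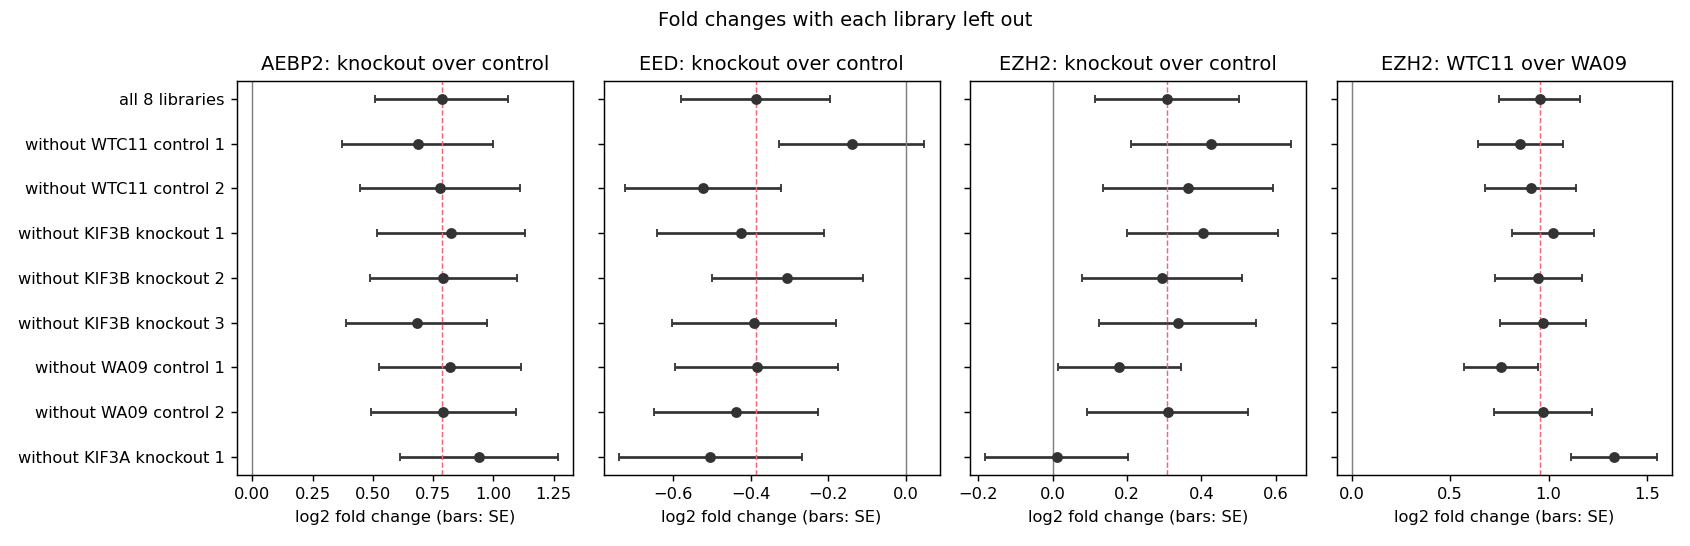
Log2 fold change (x axis; bars are SE) with all 8 libraries and with each library left out: knockout over control in both lines for AEBP2, EED and EZH2, and WTC11 over WA09 for EZH2; the dashed line marks the value with all libraries. AEBP2 stays between 0.68 and 0.94, EED stands at -0.14 without WTC11 control 1, and the knockout value of EZH2 at 0.01 without the KIF3A knockout library.

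Other genes of Polycomb biology were followed in lists that were also chosen with results known. Of 5 further PRC2 accessory and inhibitor genes 3 were tested and 0 were called in any comparison. LCOR, whose locus also encodes a PRC2 accessory protein, had 19.7 and 25.8 CPM in the WTC11 controls, 29.8, 72.5 and 109 in the KIF3B knockout, 23.9 and 17 in the WA09 controls and 32.6 in the KIF3A knockout. Like AEBP2, LCOR was higher in each knockout library than in every control, with a pooled log2 difference of 1.30 ± 0.40 (edgeR adjusted p = 0.555) that was spread unevenly over the KIF3B libraries. The other genes tested had negative pooled values, -0.47 ± 0.30 for LCORL and -0.22 ± 0.36 for PHF1, and LCORL stood at -1.17 ± 0.43 in the KIF3A comparison (unadjusted p = 0.0213, edgeR adjusted p = 1).

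Of 26 genes of Polycomb repressive complex 1, which binds the PRC2 mark and ubiquitinates histone H2A, 23 were tested and 0 called in the knockout comparisons within each line or between the control lines, with 13 positive and 10 negative KIF3B values and 10 positive and 13 negative KIF3A values. CBX2, a reader of the mark, differed by 0.55 ± 0.20 log2 in the KIF3B comparison (edgeR adjusted p = 0.232). Of 10 genes of the demethylases that remove the mark and of the H2A deubiquitinase complex 9 were tested and 0 called in those comparisons. KDM6A, one of these demethylases, had 119 and 111 CPM in the WTC11 controls and 155, 253 and 203 CPM in the KIF3B knockout, and its log2 fold change was 0.82 ± 0.22 (edgeR adjusted p = 0.175). In WA09, KDM6A stood at 185 CPM in the KIF3A knockout, between its controls at 229 and 161 CPM.

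A list of 19 genes held trithorax and other H3K4 or H3K36 methyltransferases with their partners, which are known to act against Polycomb silencing, and the H3K4 demethylases KDM5A, KDM5B and KDM5C, which remove the trithorax mark. All 19 were tested and 0 were called in the same comparisons. Of these, 17 had a positive KIF3B value, as did 51.7% of all genes, with a median of 0.31 against 0.03, whereas in the KIF3A comparison 9 were positive and 10 negative, with a median of -0.04. KMT2A, KMT2C and KMT2D have longest transcripts of 16628, 16862 and 19419 bases, and the KIF3B values rose with length over all genes; the part of length in the values of this list was not tested. In the fit to all libraries 1 gene of this list, the demethylase KDM5B (line difference 0.52 ± 0.10, edgeR adjusted p = 0.0463), and 1 of the demethylase and deubiquitinase list, HCFC1 (0.92 ± 0.18, edgeR adjusted p = 0.0463), were higher in WTC11. Of 22 partners of RBBP4 and RBBP7 in other complexes 21 were tested, with 0 called, and with 6 positive and 15 negative values in the KIF3B comparison but 13 positive and 8 negative in the KIF3A comparison. HAT1, the acetyltransferase that pairs with RBBP7, had a KIF3B value of -0.41 ± 0.14 (edgeR adjusted p = 0.201) and a KIF3A value of 0.02 ± 0.18.

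The developmental genes that PRC2 is known to cover in pluripotent cells were mostly silent. Of 61 such genes 26 had 0 counts in all 8 libraries and 41 never exceeded 3 counts. The summed level of the list was 63.4 and 81.5 CPM in the WTC11 controls, 63.4 to 113 CPM in the KIF3B knockout, 55.5 and 58.0 CPM for WA09 controls and 61.2 CPM for the KIF3A knockout. Only 8 were tested, and 0 were called in any comparison. The most abundant of these, FOXD3, was not silent, with 10.4 to 34.5 CPM over the libraries. It had a KIF3B value of 0.42 ± 0.47 log2 (edgeR adjusted p = 0.692). Of the markers of other lineages, those of primitive streak and endoderm summed to 13.9 to 103 CPM, with both extremes in the KIF3B knockout, and those of trophectoderm and amnion to 10.3 to 54.6 CPM. The 10 mesenchymal and fibroblast markers summed to 506 to 782 CPM, and THY1 was the most abundant of them in every library (297 to 441 CPM).

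Of the 6 mesenchymal markers tested, 5 had a positive KIF3B value, with a median of 0.65 against 0.03 over all genes, 3 had an unadjusted p under 0.05 and 0 were called by edgeR. COL1A2, a collagen, had 118 and 135 CPM in the WTC11 controls and 165, 312 and 159 CPM in the KIF3B knockout (0.74 ± 0.27 log2, edgeR adjusted p = 0.228), whereas THY1 had a value of -0.36 ± 0.11 (edgeR adjusted p = 0.180). In the KIF3A comparison 3 of the 6 were positive. Whether mesenchymal cells were present, and their part in the KIF3B value of AEBP2, was not tested.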

How the data were processed

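RNA-seq counts of 8 libraries were used. The authors deposited raw read counts, whole numbers for each gene and library. Per the submitters' processing notes, STAR and hg38 were used. For the counter, annotation, strand setting, duplicates and multi-mapping reads, nothing is given in the sources used here. Gene positions and lengths were taken from GENCODE release 29, to which 58039 of 58302 entries matched. Promoter sequences were taken from RefSeq (GRCh38.p14). Windows of the other 6 members were searched for the same words. Their sequences were not printed, because each window overlaps the GENCODE span of the member's own gene and so is not wholly upstream of it. CPM are TMM-scaled. Tests used edgeR 4.0.16 (quasi-likelihood, robust, TMM, filterByExpr) in R 4.3.3, with 14216 genes in a fit with 1 mean per group and 13238 in the fit with line and knockout as terms, Benjamini-Hochberg adjustment over all genes and a threshold of 0.05. The lone KIF3A library was assumed to vary like the others. Errors of fold changes are SE. Alternatives were DESeq2 1.42.0, limma 3.58.1 (voom), RLE scaling, no filter, removal of the length trend, detected genes as a covariate, the guide number as a block and each library left out. The script was tested on simulated data with the fitted spread. Of 100 genes changed 2-fold, 40% were called in the KIF3B comparison, 31% between the control lines and 51% in the pooled knockout comparison. The share was lowest in the KIF3A comparison, where the absence of calls therefore says least. The changed genes were drawn above a minimum mean level that EZH1 did not reach, and no other difference between groups was simulated. A gene that was not called may thus still differ. Pairs of replicates had a chi-square of 6.11 to 8.84 per degree of freedom over genes, above sampling noise. Members and gene lists were chosen with earlier results of these data known. All members were named, and of each other list up to 4 called genes or else the 2 most abundant, from which examples were taken.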

Additional observations from a re-analysis of the deposited data

How the results depend on the processing

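Of 760 values of the 60 member results under alternative settings, 706 moved by no more than 1 SE on the same side of the threshold, 46 moved further, 8 passed the threshold and 70 changed sign, all of uncalled values. EZH1, PHF19 and AEBP2 had the lowest levels per kb, and the spread between libraries of EZH1 and PHF19 exceeded counting error. The single KIF3A library limits every KIF3A value. The causes of the changes below were not tested.

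Genes called by DESeq2 were 246 for KIF3B, 1 for KIF3A, 17 for the difference of effects, 37 for the pooled knockout difference, 219 between control lines and 804 between lines over all libraries. With no filter these were 676, 2, 160, 154, 525 and 875. Of the 4 genes called between control lines, 0 were called with limma voom, with RLE scaling or with detected genes as a covariate. Of the 131 between lines over all libraries, the counts were 53 with the length trend removed and 0 with detected genes as a covariate. PRC2 genes called were 1 (DESeq2) and 2 (no filter) between control lines, and 2, 2 and 1 (DESeq2, no filter, filter on knockout status) over all libraries, the last an alternative chosen after seeing the data, as was the fit to all libraries itself.

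Leaving out each library in turn gave 0 to 5 called genes for KIF3B (5 without WTC11 control 2), 0 to 1 for KIF3A, 0 to 1 for the difference of effects, 0 for the pooled comparison, 0 to 1 between control lines and 0 to 171 over all libraries (171 when WTC11 control 1 was left out, 61 for KIF3B knockout 1, and 0 for any other library). Over 14216 genes, the difference of guide 1 minus guide 2 in the WTC11 controls did not correlate with that in the KIF3B knockouts (r = -0.02). With so few libraries, this r cannot show that the guides have no effect. With the guide number as a replicate block, 1 gene was called for KIF3B in place of 0, and no PRC2 gene.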

Other observations

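The genes nearest to EZH2 on its chromosome, chosen after the values were seen, had smaller estimates of the difference between the control lines. CUL1, a ubiquitin ligase scaffold 6.35 kb away, differed by 0.32 ± 0.17 log2 (WTC11 over WA09), ZNF786 by 0.35 ± 0.28, PDIA4 by -0.21 ± 0.10 and CNTNAP2 by -0.20 ± 0.19, against 1.34 ± 0.21 for EZH2. No test of the difference between these genes was made.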
